A study of Saccharomyces cerevisiae with 12 samples.

Results

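The genes described here are the nuclear genes of the mitochondrial respiratory chain of budding yeast, Saccharomyces cerevisiae. They were chosen by name: every gene on the array whose symbol is COX, QCR, ATP or SDH followed by a number and, for a few, A or B, together with CYT1, CYC1, CYC7 and RIP1. The rule found 48 of the 6256 genes on the array. By role, 36 of them encode subunits (4 of complex II, 8 of complex III, 2 isoforms of cytochrome c, 9 of complex IV and 13 of ATP synthase), and 12 encode factors that assemble complex IV (9 genes) or ATP synthase (3 genes). Spots above background allowed a test for 47 genes, and the exception was ATP10, an assembly factor with values on 5 of the 12 arrays.

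The respiratory chain passes electrons from food molecules to oxygen and stores the energy as a proton gradient across the inner mitochondrial membrane. Complex II, succinate dehydrogenase, is also an enzyme of the citric acid cycle and feeds electrons to ubiquinone. Complex III hands them to cytochrome c, complex IV (cytochrome c oxidase) hands them to oxygen, and ATP synthase uses the gradient to make ATP. Budding yeast has no proton-pumping complex I and uses single-protein NADH dehydrogenases instead. On glucose this yeast mainly ferments, and glucose is known to repress many respiratory genes. Several core proteins of complexes III and IV and of ATP synthase are made from mitochondrial DNA and are not among these genes.

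The prototrophic MATa strain FY4, a relative of S288C, was grown exponentially on filters laid on minimal medium (YNB) with glucose and ammonium. Filters were then moved to plates without D-glucose (carbon starvation) or without ammonium (nitrogen starvation), and poly(A)+ RNA was taken after 10, 30, 60, 120, 240 and 480 min. Each of the 12 samples was hybridized once, labeled with Cy5 (red), against the zero timepoint labeled with Cy3 (green), with no dye swap. A value below is log2 of red over green, so 0 is the level of exponential growth, and values always run in order of time. All 12 samples share the strain and the pre-growth. No time point was repeated, so the 3 arrays at 10 to 60 min are called early and the 3 at 120 to 480 min late. The standard errors (SE) and p-values measure the spread between the times within a phase and not between cultures. For each gene this spread is pooled over both phases of both starvations, the weak early arrays described below included. An SE is therefore not the spread of the phase it stands beside alone. Equal amounts of RNA were loaded, so a smaller RNA pool per cell cannot be told apart from no change.

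On 4 arrays (carbon at 10, 30 and 60 min and nitrogen at 10 min) the red signal was weak: 42.7% to 78.4% of spots were well above background in red, against 84.8% to 93.4% on the other 8 arrays. Of the 74 spots for these genes, 57 to 69 were well above background in red on those 4 arrays and 73 or 74 on the other 8. After each array was scaled to equal red and green totals, its median gene lay between -0.97 and 0.57. The scaling itself shifted the arrays by -0.68 to 0.42. Both extremes of the shift fell on the arrays with the extreme medians, carbon at 60 min and nitrogen at 120 min. Part of this range therefore comes from the processing. The 26 genes with 2 spots showed how far duplicate spots spread: their SD was 0.08 to 0.17 (log2). As a check of the labels, 7 of 7 genes of nitrogen scavenging were higher late in nitrogen than in carbon starvation by the test, and 6 of 6 genes of growth without glucose were lower, 4 of them by the test. The MATa genes STE2, BAR1, MFA1 and MFA2 were above background in green on 12 of 12 arrays and the alpha-factor genes on 0 of 12, although the a-factor receptor gene STE3, a marker of the other mating type, was above background on 10. Because the early carbon phase consists wholly of weak arrays, the late phases are described first.

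Many genes of the chain were more abundant late in starvation, and 22 of the 47 tested were called higher in both late phases. The share of all genes called higher in both was not counted, so this overlap cannot be set against it. Late in carbon starvation 31 of 47 were higher than at the zero timepoint, 1 was lower (CYC1) and 15 did not pass the test (limma, adjusted p under 0.05). Of all 5505 genes tested, 27.4% were higher and 36.7% lower in that phase. The median of the 47 genes was 1.31 and that of all genes -0.15. Late in nitrogen starvation 24 of 47 were higher and 1 was lower, again CYC1, where 28% of all genes were higher and 20.3% lower. The median of the 47 was 0.95, beside 0.21 for all genes. Without the 4 weak arrays the counts were 32 higher and 1 lower in carbon starvation, and 25 higher and 0 lower in nitrogen starvation. Array by array, 46 of 48 genes with values lay above the array's median gene at 120 min of carbon starvation and 42 of 47 at 240 min, while the smallest such count was 32 of 47, at 10 min of nitrogen starvation. How the arrays are scaled moved the balance of calls over all genes: 42.8% of the late carbon calls were higher here, against 47.4% to 55.4% under 4 other scalings, and 57.9% of the late nitrogen calls, against 47.2% to 63.9%.

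**Figure D1:**
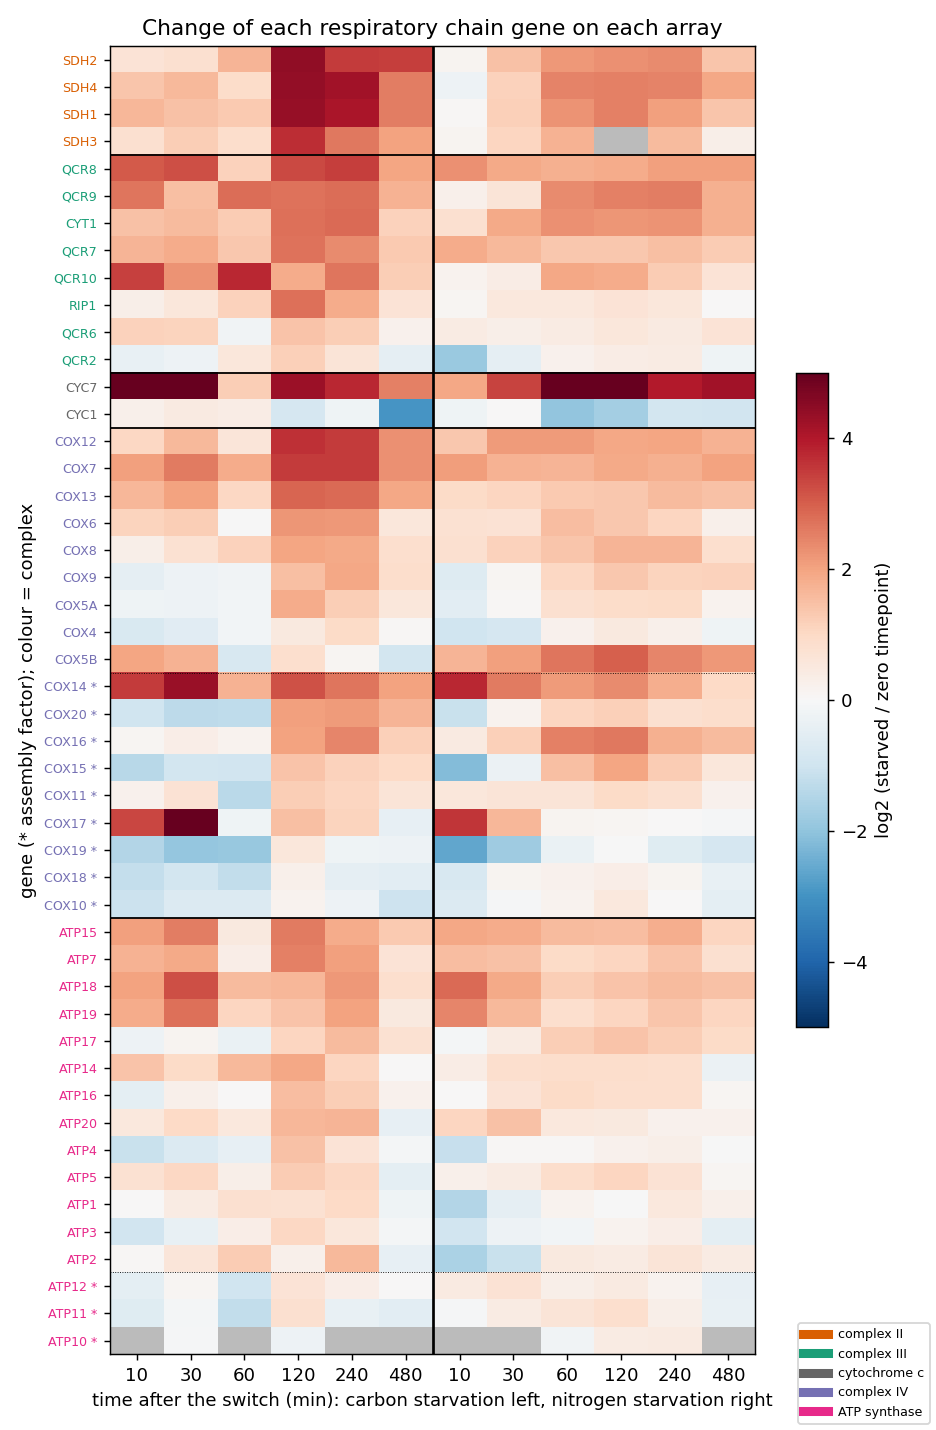
Log2 change against the zero timepoint of each of the 48 genes (rows, colored by complex, assembly factors starred) on each of the 12 arrays (columns, time in min); gray marks no value and the color scale ends at -5 and 5. Most rows are red at 120 and 240 min of carbon starvation, CYC1 turns blue in both starvations, and COX5B is red at all 6 times of nitrogen starvation.

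The median change differed in size between the complexes. In late carbon starvation the median of the subunit means was 3.70 for complex II, 2.03 for complex III, 1.56 for complex IV and 0.99 for ATP synthase. In late nitrogen starvation the same complexes were highest and lowest, with 1.99 for complex II, 1.32 for complex III, 1.41 for complex IV and 0.60 for ATP synthase. Complex II had the highest median of the 4 on 3 of 3 late carbon and 3 of 3 late nitrogen arrays, but on 0 of 3 early carbon arrays. ATP synthase had the lowest median on all 6 late arrays and on 9 of 12 arrays in total. These are descriptions of 4 to 13 genes that share each array, with no test between complexes. The 8 late medians stayed above the median of all genes under every alternative processing in which they were computed.

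**Figure D2:**
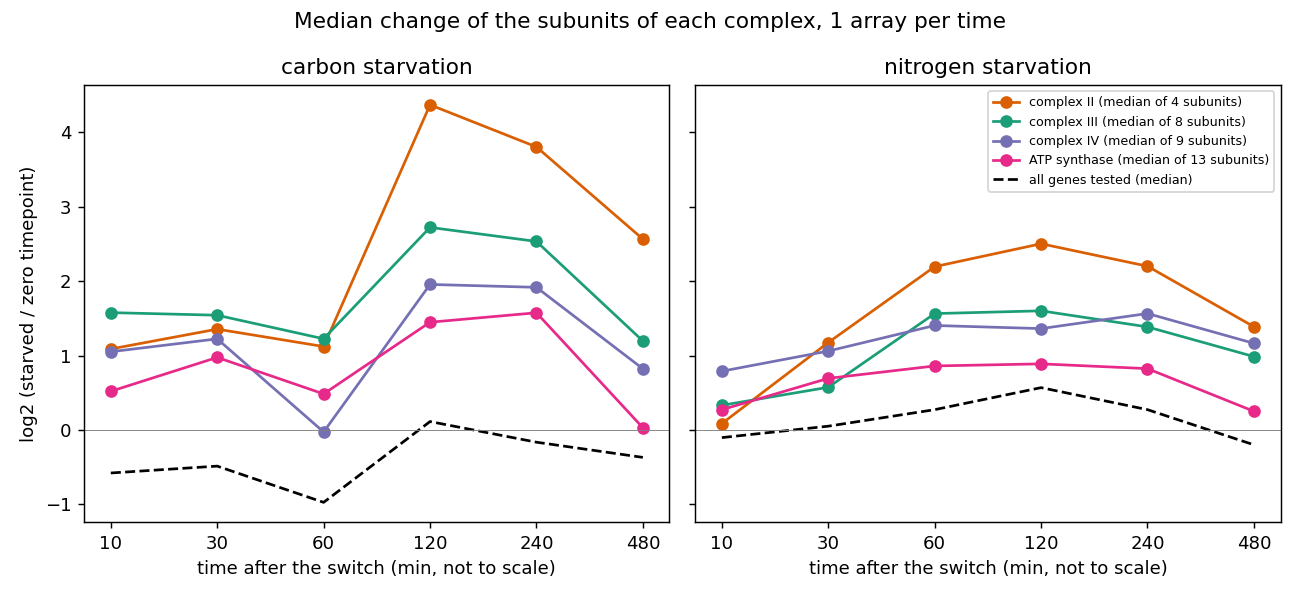
Median log2 change of the subunits of each complex on each array against time after the switch (min, evenly spaced), for carbon starvation (left) and nitrogen starvation (right); the dashed line is the median of all genes tested. In carbon starvation complex II steps from 1.12 at 60 min, on the weakest array, to 4.37 at 120 min, while the median of all genes goes from -0.97 to 0.11. At 480 min complex II is at 2.57. In nitrogen starvation it climbs from 0.09 at 10 min to 2.50 at 120 min, where SDH3 has no value.

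All 4 subunits of complex II rose late in carbon starvation, and 3 of them had the highest late carbon means of the set. SDH2, the iron-sulfur subunit that passes electrons inside the enzyme, had log2 values of 0.68, 0.79, 1.71, 4.42, 3.51 and 3.44 in carbon starvation. In nitrogen starvation its values were 0.13, 1.46, 2.16, 2.28, 2.35 and 1.38. The 3 late carbon values lie above all 9 others, and the late means were 3.79 ± 0.37, adjusted p = 3.08e-06 (SE, n = 3) in carbon and 2.00 ± 0.37, adjusted p = 9.68e-04 in nitrogen starvation, a 13.9-fold and a 4.00-fold rise. SDH1, the flavoprotein that oxidizes succinate, reached 4.35 at 120 min of carbon starvation and 2.50 at 120 min of nitrogen starvation, with late means of 3.68 ± 0.40 and 1.99 ± 0.40.

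The membrane anchors had their highest values at the same stage of carbon starvation. SDH4, which holds the enzyme in the membrane, read 1.39, 1.60, 0.93, 4.39, 4.21 and 2.56 in carbon starvation. Its nitrogen series read -0.26, 1.14, 2.50, 2.50, 2.49 and 1.92. It was the highest complex II gene late in nitrogen starvation (2.31 ± 0.45, adjusted p = 0.00127), and all its late carbon values exceeded its late nitrogen values (3.72 ± 0.45, adjusted p = 1.48e-05 in carbon). SDH3, the cytochrome b anchor, was at 0.79, 1.23, 0.89, 3.71, 2.65 and 2.03 in carbon starvation. In nitrogen starvation SDH3 read 0.12, 1.08 and 1.74 at 10, 30 and 60 min, had no usable spot at 120 min, and read 1.57 and 0.28 at 240 and 480 min. It rose late in carbon starvation (2.79 ± 0.38, adjusted p = 5.34e-05) and had the lowest mean of the 4 genes in both late phases; its late nitrogen mean of 0.92 ± 0.46 (n = 2) did not pass the test (adjusted p = 0.119), but did with time point as a block (1.38, adjusted p = 0.0132) and with normexp and equal totals (1.05, adjusted p = 0.0435).

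Of the 8 complex III genes, 7 rose late in carbon starvation and 5 in nitrogen starvation. QCR8, a small subunit that contacts cytochrome b, had values of 3.07, 3.21, 1.17, 3.30, 3.44 and 1.97 in carbon starvation. In nitrogen starvation they were 2.27, 1.91, 1.77, 1.84, 2.04 and 2.05. QCR8 thus read high at 10 min in both courses, but both of these arrays were weak. Short genes of the set tended to read higher on them, and QCR8 is 285 bp long. Its late means were 2.90 ± 0.38, adjusted p = 2.70e-05 in carbon and 1.98 ± 0.38, adjusted p = 0.00114 in nitrogen starvation. QCR9 is another small subunit. Its nitrogen values were 0.25, 0.63, 2.36, 2.52, 2.55 and 1.77, a late mean of 2.28 ± 0.40, adjusted p = 6.48e-04. That was the highest of the complex as processed here, but with normexp it was 1.34 (loess) and 1.63 (equal totals), below QCR8 in both settings (1.85 with equal totals). In carbon starvation QCR9 read 2.67, 1.51, 2.81, 2.73, 2.80 and 1.73, with early and late values that overlap. Cytochrome c1, encoded by CYT1, rose in both phases (2.25 ± 0.34 in carbon and 2.08 ± 0.34 in nitrogen starvation).

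At the other end of complex III stood QCR2, the core protein 2 that faces the matrix. Its carbon series was -0.37, -0.25, 0.56, 1.18, 0.63 and -0.44. Its nitrogen series was -1.86, -0.47, 0.20, 0.38, 0.40 and -0.22. Both courses cross 0, and neither late mean passed the test (0.46 ± 0.38, adjusted p = 0.315 and 0.19 ± 0.38, adjusted p = 0.713). With both normexp settings the late carbon mean was called, at 0.65 and 0.74. RIP1, the Rieske iron-sulfur protein that takes electrons from ubiquinol, rose in carbon starvation (1.76 ± 0.33, adjusted p = 4.82e-04), while its late nitrogen values of 0.67, 0.57 and 0.04 did not pass (0.42 ± 0.33, adjusted p = 0.310). QCR6 behaved likewise, with 0.95 ± 0.29 in carbon (adjusted p = 0.0122) and 0.57 ± 0.29 in nitrogen starvation (adjusted p = 0.128). QCR7 and QCR10, both small subunits, rose in both late phases.

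The 2 genes for cytochrome c, the soluble carrier between complexes III and IV, moved in opposite directions. CYC1 encodes iso-1-cytochrome c, the main form in cells with oxygen. Its carbon values were 0.25, 0.46, 0.36, -0.84, -0.22 and -2.95. Its nitrogen values were -0.23, 0.04, -1.97, -1.68, -0.94 and -0.94. All 6 late values are below 0, and CYC1 was the only gene of the set called lower than at the zero timepoint, by 2.53-fold late in carbon (-1.34 ± 0.46, adjusted p = 0.0222) and by 2.28-fold late in nitrogen starvation (-1.19 ± 0.46, adjusted p = 0.0496). Both calls were lost in some settings. Without the 480 min carbon array the carbon mean was -0.53 (adjusted p = 0.313), and 3 of 11 other settings lost that call. The nitrogen call was lost in 4 of 11 settings and on leaving out 8 arrays in turn (carbon at 10, 30, 60 and 120 min, nitrogen at 30, 120, 240 and 480 min), with means from -1.31 to -0.94 and adjusted p from 0.0524 to 0.232 over these 8 fits. With normexp (loess, then equal totals) the means were -0.81 and -0.62 in carbon and -1.05 and -0.77 in nitrogen starvation.

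CYC7 encodes iso-2-cytochrome c, known as the form of cells short of oxygen. In carbon starvation it read 6.59, 5.96, 1.22, 4.28, 3.75 and 2.50. Its nitrogen values were 1.95, 3.40, 5.70, 5.76, 3.95 and 4.20. Every array was above 1, the dip at 60 min of carbon starvation stands apart from its neighbors, and that array had the weakest red signal. Its late means were 3.51 ± 0.88, adjusted p = 0.00345 in carbon and 4.64 ± 0.88, adjusted p = 0.00108 in nitrogen starvation, the latter 24.9-fold. The green signal of CYC7 was well above background on 9 of 12 arrays, and the size of its change moved with the background correction: with normexp the late means were 1.53 (loess) and 1.58 (equal totals) in carbon and 2.14 and 2.42 in nitrogen starvation, still called. CYC7 had the highest late nitrogen mean of the 47 genes as processed here, but lay below COX5B with both normexp settings. The difference CYC7 minus CYC1 was above 0 on 12 of 12 arrays, between 0.85 and 7.67. Cross-hybridization between the genes of an isoform pair, here and below, was not tested.

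**Figure D3:**
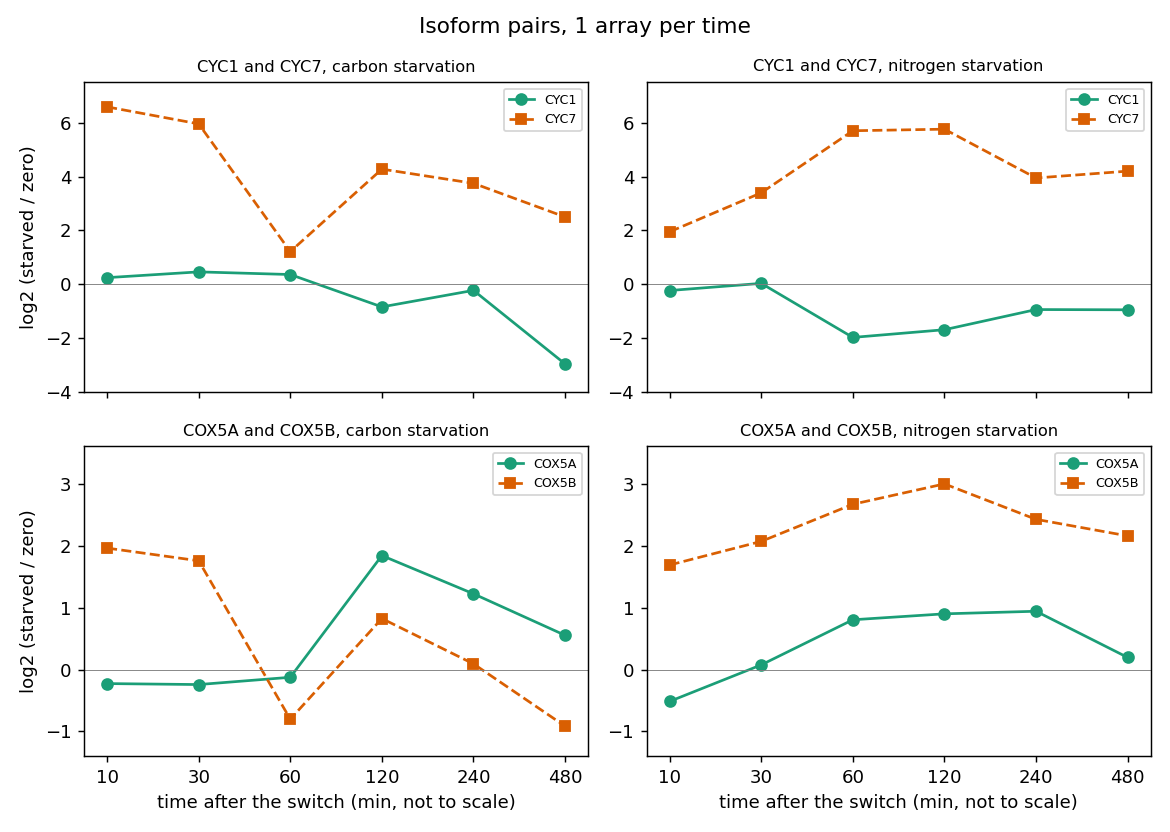
Log2 change of the cytochrome c genes CYC1 and CYC7 (top) and of the complex IV genes COX5A and COX5B (bottom) against time after the switch (min, evenly spaced), in carbon starvation (left) and nitrogen starvation (right), 1 array per point. CYC7 lies above CYC1 on every array, whereas COX5B lies above COX5A at all 6 times of nitrogen starvation but only at 10 and 30 min of carbon starvation.

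Complex IV holds the other isoform pair. COX5A encodes the form of subunit 5 used with oxygen, and COX5B the form known from cells short of oxygen. COX5B had values of 1.96, 1.76, -0.80, 0.82, 0.09 and -0.91 in carbon starvation. In nitrogen starvation it had 1.69, 2.07, 2.67, 2.996, 2.42 and 2.16. Its 6 nitrogen values lie between 1.69 and 2.996, while its carbon values fall on both sides of 0 from 60 min on. The late nitrogen mean rose to 2.53 ± 0.47, adjusted p = 9.81e-04, 5.76-fold, and the late carbon mean was -2.93e-05 ± 0.47 (adjusted p = 1). COX5A went the other way in rank. It read -0.23, -0.24, -0.13, 1.84, 1.22 and 0.55 in carbon starvation. Its nitrogen series was -0.51, 0.07, 0.80, 0.90, 0.94 and 0.20. The late carbon values lie above the early ones without overlap, with a late mean of 1.20 ± 0.30, adjusted p = 0.00327, and the late nitrogen mean did not pass the test (0.68 ± 0.30, adjusted p = 0.0773), but did with both normexp settings (0.39 and 0.73) and with time point as a block (adjusted p = 0.0431). COX5B minus COX5A was between 1.48 and 2.20 on all 6 nitrogen arrays and between -1.47 and -1.02 on the 3 late carbon arrays.

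Among the other subunits of complex IV, COX12 and COX7 rose most. COX12, subunit 6b at the outer face, read 1.05, 1.61, 0.60, 3.64, 3.50 and 2.30 in carbon starvation. In nitrogen starvation it read 1.35, 2.12, 2.15, 1.93, 1.98 and 1.73. The 3 late carbon values exceed every other value of the gene (3.14 ± 0.30, adjusted p = 2.39e-06 late in carbon and 1.88 ± 0.30, adjusted p = 3.75e-04 late in nitrogen starvation). COX7, subunit 7, had carbon values of 2.05, 2.61, 1.87, 3.51, 3.49 and 2.30. Its nitrogen values were 2.11, 1.73, 1.70, 1.91, 1.80 and 2.02. The nitrogen course of COX7 was flat from 10 to 480 min, all within 1.70 and 2.11, and its late means were 3.10 ± 0.27, adjusted p = 1.18e-06 and 1.91 ± 0.27, adjusted p = 1.99e-04. COX13, COX8 and COX9 also rose in both late phases, and COX6 in the carbon phase. COX4, subunit 4, had the lowest late nitrogen mean of the subunits: its values were -0.99, -0.82, 0.20, 0.48, 0.25 and -0.22. In carbon starvation COX4 read -0.77, -0.55, -0.14, 0.48, 0.95 and 0.07, and neither late mean passed the test (0.50 ± 0.28, adjusted p = 0.134 and 0.17 ± 0.28, adjusted p = 0.642), although the carbon mean was called under each other scaling or background correction, at 0.45 to 0.75. In all, 7 of 9 subunit genes rose late in carbon and 6 of 9 late in nitrogen starvation.

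The 9 assembly factors of complex IV were more mixed, with 4 called higher in each late phase, where 27.4% and 28% of all genes were higher. Over all 11 assembly factors tested, the late carbon median was 0.74, beside -0.15 for all genes. Their late nitrogen median of 0.25 was close to the 0.21 of all genes. COX14, which couples synthesis of the Cox1 protein to assembly, read 3.51, 4.30, 1.73, 3.20, 2.67 and 2.00 in carbon starvation. The nitrogen values were 3.77, 2.59, 2.14, 2.37, 1.83 and 0.98. Its highest values were early, on the weak arrays, yet the late carbon mean was 2.62 ± 0.46, adjusted p = 2.58e-04. The late nitrogen mean was 1.73 ± 0.46, adjusted p = 0.00778. With normexp (loess, then equal totals) the carbon mean was 1.04 and 1.04, still called, and the nitrogen mean 0.45 and 0.27, no longer called. COX16, an assembly factor, had the highest late nitrogen mean of these factors, with nitrogen values of 0.43, 1.21, 2.50, 2.63, 1.78 and 1.59 (2.00 ± 0.36, adjusted p = 7.88e-04). In carbon starvation COX16 went from 0.12, 0.33 and 0.19 early to 2.00, 2.43 and 1.21 late (1.88 ± 0.36, adjusted p = 5.26e-04). Its late means were 0.85 and 0.79 in carbon and 0.78 and 0.79 in nitrogen starvation with the 2 normexp settings, still called.

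COX20, the chaperone of the Cox2 protein, changed most between the carbon phases: it read -1.01, -1.30, -1.26, 2.06, 2.13 and 1.68. COX17, a copper chaperone, was highest early, with carbon values of 3.34, 4.96, -0.21, 1.52, 1.12 and -0.41 and 3.59 at 10 min of nitrogen starvation, against -0.06 to 0.15 from 60 min on. The difference between its carbon phases did not pass the test (-1.96 ± 1.11, adjusted p = 0.162), nor did its late means (0.74 ± 0.78 and 0.01 ± 0.78). At the low end were COX10, which makes heme O, and COX19. COX10 had carbon values of -1.09, -0.68, -0.69, 0.18, -0.27 and -1.05 and nitrogen values of -0.69, -0.06, 0.19, 0.54, 0.03 and -0.50. COX19 had carbon values of -1.47, -1.92, -1.88, 0.56, -0.20 and -0.27 and nitrogen values of -2.59, -1.78, -0.35, -0.01, -0.60 and -0.84. Red signal of COX10, COX16 and COX19 was not well above background on any early carbon array, so their values there are upper bounds. COX15, which makes heme A, was called in late nitrogen starvation (1.28 ± 0.49, adjusted p = 0.0484) but in only 5 of 10 other settings and 2 of 12 fits with an array left out (adjusted p from 0.00576 to 0.264), and it was not called in late carbon starvation (1.19 ± 0.49, adjusted p = 0.0504). COX11, which brings copper to the Cox1 protein, rose in late carbon starvation (0.99 ± 0.33, adjusted p = 0.0176), and COX18, which inserts the Cox2 protein into the membrane, was not called. The late means of COX10 and COX19 did not pass the test, except that COX19 was called lower late in nitrogen starvation with normexp and loess (-0.36, adjusted p = 0.0146).

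ATP synthase had the smallest late medians of the 4 enzymes: 8 of 13 subunit genes rose late in carbon starvation and 5 of 13 late in nitrogen starvation. Over all genes 27.4% and 28% were higher in these phases. ATP15, the small epsilon subunit of the F1 head, read 2.07, 2.55, 0.48, 2.61, 1.86 and 1.31 in carbon starvation. In nitrogen starvation it read 1.94, 1.85, 1.59, 1.56, 1.80 and 1.07. It had the highest late carbon mean of the enzyme (1.93 ± 0.36, adjusted p = 4.23e-04), and its late nitrogen mean was 1.47 ± 0.36, adjusted p = 0.00483. ATP18, a small membrane subunit, read 2.01, 3.21, 1.58, 1.65, 2.15 and 0.85 in carbon starvation. In nitrogen starvation it read 2.83, 1.88, 1.25, 1.41, 1.57 and 1.48, with late means of 1.49 ± 0.36, adjusted p = 0.00463 in nitrogen and 1.55 ± 0.36, adjusted p = 0.00205 in carbon starvation. ATP18 had the highest late nitrogen mean of the enzyme as processed here, but with normexp it was 0.86 and 1.14, below ATP15 at 1.07 and 1.43. ATP7, ATP17 and ATP19, of the stalk and the membrane part, rose in both late phases, and ATP14, ATP16 and ATP20 in carbon starvation. The stalk subunits ATP4 and ATP5 did not pass the test in either phase, with late carbon means of 0.68 ± 0.32 and 0.60 ± 0.33.

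The 3 large subunits of the F1 head, which form the catalytic sites or turn between them, were not called in either late phase. ATP2, the catalytic beta subunit, had carbon values of 0.07, 0.61, 1.25, 0.26, 1.64 and -0.40. Its nitrogen values were -1.58, -1.10, 0.50, 0.40, 0.63 and 0.40. The late values fall on both sides of 0 in carbon starvation (0.50 ± 0.42, adjusted p = 0.308), and the late nitrogen mean was 0.48 ± 0.42, adjusted p = 0.362. ATP3, the gamma subunit, had carbon values of -0.98, -0.36, 0.34, 1.03, 0.57 and -0.08 and nitrogen values of -0.97, -0.25, -0.13, 0.17, 0.35 and -0.50. Its late means were 0.51 ± 0.31, adjusted p = 0.168 and 0.01 ± 0.31, adjusted p = 0.990. ATP1, the alpha subunit, gave late means of 0.52 ± 0.32 and 0.26 ± 0.32. With normexp background correction ATP3 was called higher late in carbon starvation, at 0.76 (loess) and 0.74 (equal totals). The F1 chaperones ATP11 and ATP12 were not called as processed here, but ATP12 was called higher late in carbon starvation under each other scaling or background correction, at 0.30 to 0.54. ATP11 ran from -1.25 to 0.84 over the 12 arrays and ATP12 from -0.98 to 0.71. The 5 values of ATP10 were between -0.24 and 0.44.

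The 2 starvations were then compared over the late phases. No array held both, so the difference runs through the zero timepoint on each array. Whether both courses used the same zero-timepoint RNA is not stated. A single gene of the set was higher in nitrogen starvation, COX5B, by 2.53 ± 0.67, adjusted p = 0.0213. Over all genes 12.9% were higher in nitrogen starvation and 3.34% lower. At matched times COX5B was 2.17, 2.33 and 3.07 higher at 120, 240 and 480 min. SDH2 (-1.79 ± 0.53, adjusted p = 0.0350) and COX7 (-1.19 ± 0.38, adjusted p = 0.0491) were lower in nitrogen starvation, by 2.15, 1.17 and 2.06 for SDH2 and by 1.60, 1.69 and 0.28 for COX7 at the same times. The other complex II genes had differences of -1.69 ± 0.57, -1.87 ± 0.60 and -1.42 ± 0.63 (SDH1, SDH3 and SDH4, adjusted p of 0.0647, 0.0540 and 0.1599) and did not pass. The median difference of the 47 genes was -0.39, beside 0.26 for all genes, and 10 of 47 were above 0.

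These calls depend on the scaling of the arrays. With the array medians set to 0, 10 of 47 genes of the set were lower in nitrogen starvation, where 9.74% of all genes were lower. With normexp and loess within arrays the count was 18 of 47, where 13.6% of all genes were lower. Over all genes 54.4% and 44.0% of the calls in these settings were higher, rather than 79.4%. Under all 4 other scalings or background corrections, and in the deposited series table, which differs from the values with no further scaling by a median of only 0.000265, SDH1, SDH2, SDH3, COX7, COX12, COX13, COX20, QCR7 and RIP1 were called lower and COX5B higher, with COX5B between 2.06 and 2.24. Leaving out single arrays lost the COX5B call in 4 of 12 cases (2.07 without the 480 min and 2.57 without the 240 min carbon array, 2.29 without the 120 min and 2.58 without the 240 min nitrogen array), the SDH2 call in 7 (carbon at 120, 240 and 480 min, nitrogen at 30, 120, 240 and 480 min; -1.97 to -1.48) and the COX7 call in 8 (carbon at 10, 30, 120 and 240 min, nitrogen at 30, 120, 240 and 480 min; -1.25 to -0.98). With time point as a block (adjusted p = 0.0676) or slide as a random block (adjusted p = 0.0562) COX7 was not called, and in all its call was lost in 5 of 11 settings; SDH2 was lost in 1, trended variance (adjusted p = 0.0558). On the slides that held an array of each starvation, at unequal times, COX5B was higher in nitrogen starvation by 1.84 and 0.40, SDH2 differed by -2.27 and 0.59, and COX7 by -1.81 and -0.59.

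**Figure D4:**
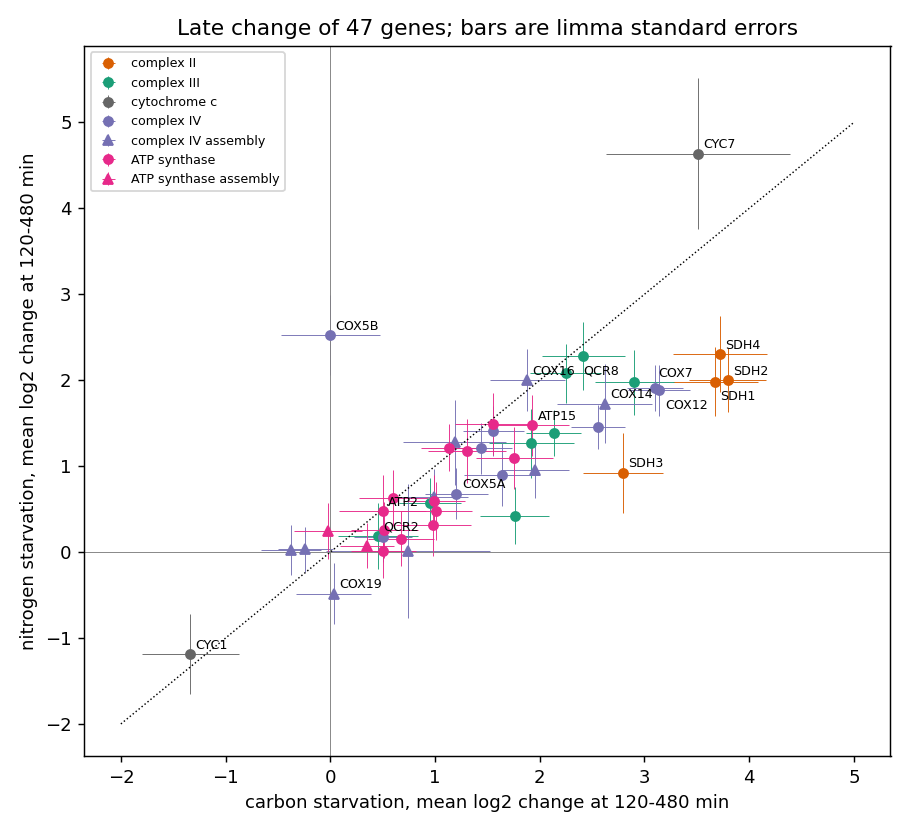
Mean log2 change over 120 to 480 min in carbon starvation (x) against nitrogen starvation (y) for the 47 genes tested, with limma standard errors as bars, colors for the complexes and triangles for assembly factors; the dotted line marks equal change. COX5B lies far above the line (-2.93e-05 in carbon, 2.53 in nitrogen starvation) and the 4 complex II genes lie below it; of these 5 genes only COX5B and SDH2 passed the test of the difference.

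Within carbon starvation 14 of 47 genes were higher late than early and 1 was lower, where 30.2% of all genes were higher and 16.1% lower. The share of the set called higher was thus close to that of all genes. The 14 included all 4 complex II genes, with differences of 1.82 to 2.74, but 0 of the 8 complex III genes. The largest late gain was that of COX20 (3.15 ± 0.46, adjusted p = 3.95e-04), and the gene called lower was CYC1 (-1.70 ± 0.66, adjusted p = 0.0495). This comparison sets 3 strong arrays against the 3 weak ones, so phase and red signal cannot be told apart. Its balance over all genes turned with the background correction, from 65.1% of calls higher to 16.8% with normexp and equal totals. In that setting 12 genes of the set and 51.5% of all genes were lower. Within nitrogen starvation 0 genes of the set and 0% of all genes were called in either direction by limma, with 2 of 47 and 916 of 5505 at an unadjusted p under 0.05 and a lowest adjusted p of 0.262 in the set. Leaving out the 60 min nitrogen array gave 9 of 47 genes of the set called higher, with 16.7% of all genes higher in that fit.

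The late carbon values did not hold their height to the last time point. In the 47 genes with values, as scaled here, 480 min was the lowest of the 3 late carbon times for every one. The step from 240 to 480 min was below 0 in 47 of 47, with a median of -1.07. The scaling subtracted 0.12 from every gene at 240 min and 0.29 at 480 min, so part of each step comes from the processing. The smallest steps, such as 3.51 to 3.44 for SDH2, lie within that part. The counts were not made under other scalings. Over all genes 61.6% stepped down and the median step was -0.17. In nitrogen starvation the same step was below 0 in 41 of 47, with a median of -0.49 beside -0.38 and 78.6% for all genes. There the scaling subtracted -0.24 at 240 min and 0.14 at 480 min. In both starvations the difference between the amounts subtracted at these times is about the size of the all-gene median step. Most of the nitrogen step of the set is thus of the size that the scaling put in. As scaled here, the highest late carbon value fell at 120 min for 33 genes, ATP10 with its single late value among them, and at 240 min for 15. The scaling subtracted -0.06 at 120 min of carbon starvation, against 0.12 at 240 min. Genes with close values at these times, such as COX7 (3.51 and 3.49), can change sides under another scaling. Each time is 1 array, so the time and the array cannot be told apart.

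Short genes of the set tended to have higher values. Across the genes with values, Spearman's rho between gene length (assembly R64) and log2 change was -0.27 to -0.60 on the 4 weak arrays and -0.24 to -0.47 on the other 8, where across all genes it was -0.25 to -0.11 and -0.24 to 0.01. On the 30 min carbon array the median was 1.37 for the 26 genes under 500 bp and 0.57 for the 21 longer ones, and at 240 min it was 1.96 and 1.09. The genes of a set share their array, and many of its short genes belong to the same complexes, so these are descriptions with no test. SDH1, with a late carbon mean among the highest, is the longest gene of the set, at 1923 bp. The part of gene length in the order of the complexes was not tested.

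**Figure D5:**
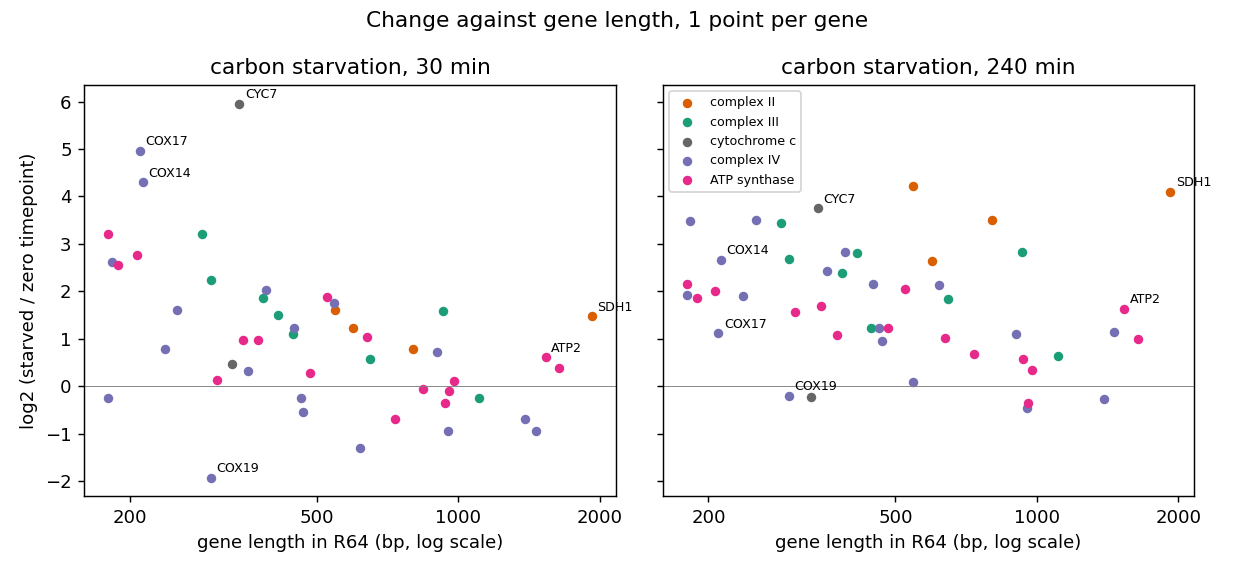
Log2 change against gene length (bp, log scale, assembly R64) for each gene of the set at 30 min (left, a weak array) and 240 min (right) of carbon starvation, colored by complex. At 30 min the highest values, CYC7 at 5.96, COX17 at 4.96 and COX14 at 4.30, belong to short genes, and at 240 min COX17 is at 1.12 and the long SDH1 at 4.10.

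Genes that work beside the chain gave the context. Of 6 genes that deliver electrons to it, 5 rose late in carbon and 3 late in nitrogen starvation, and 4 were lower in nitrogen than in carbon starvation. NDE2, an NADH dehydrogenase of the outer face of the inner membrane, had the largest change at 7.03 ± 0.50, adjusted p = 9.72e-07 in carbon and 4.63 ± 0.50 in nitrogen starvation, while its relative NDE1 gave 0.15 ± 0.28 and -0.03 ± 0.28 and passed in neither. CYB2, which oxidizes lactate, and GUT2, which oxidizes glycerol phosphate, had late carbon means of 5.77 ± 0.51 and 4.96 ± 0.39. Further subunits and inhibitors of ATP synthase or complex III rose in 5 of 5 cases in carbon and 4 of 5 in nitrogen starvation. STF1, which holds back ATP hydrolysis by ATP synthase, rose to 4.97 ± 0.35, adjusted p = 3.71e-07 in carbon and 3.32 ± 0.35 in nitrogen starvation, above each of the 13 subunits of that enzyme.

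Other factors for expression and assembly of the complexes went both ways. Of 31 tested, 13 rose and 2 fell late in carbon starvation, and 11 rose and 1 fell late in nitrogen starvation, where 27.4% and 28% of all genes were higher and 36.7% and 20.3% lower in these phases. For ubiquinone synthesis 4 of 7 rose and 2 fell in carbon, and 3 rose and 0 fell in nitrogen starvation. Among 5 carriers, the ADP/ATP carriers AAC1 and AAC3 diverged. The main ADP/ATP carrier, PET9, lacked a value at 1 late time of each starvation. Its late means, 0.47 ± 0.61 in carbon and 0.49 ± 0.61 in nitrogen starvation, were not called. AAC1 read 0.12, -0.02, 0.78, 3.94, 3.86 and 4.12 in carbon starvation, a late mean of 3.97 ± 0.29, adjusted p = 4.68e-07. AAC3, a form known from cells short of oxygen, read -0.30, -0.32, 0.51, -3.15, -2.77 and -3.73, a late mean of -3.22 ± 0.39, adjusted p = 1.68e-05. In nitrogen starvation the late means were 2.34 ± 0.29 for AAC1 and -1.30 ± 0.39 for AAC3, both called. CYC7, COX5B and AAC3, the genes named here for cells short of oxygen, did not move together: in late carbon starvation their means were 3.51, -2.93e-05 and -3.22. In late nitrogen starvation the means were 4.64, 2.53 and -1.30. With normexp the late carbon mean of CYC7 was smaller, at 1.53 (loess) and 1.58 (equal totals). Whether these genes share a response was not tested.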

How the data were processed

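Deposited values were Agilent Feature Extraction A.7.5.1 files, 1 per two-color array. Per the file headers, the authors' processed red and green intensity values carry spatial detrending and a LOWESS dye correction without global background subtraction. The deposited series table of log2 ratios served as an alternative. As in the study's methods, each array was scaled to equal red and green totals over 10263 non-control spots. Outlier spots and spots dim in both channels were dropped, and the spots of a gene were averaged. Genes with at least 2 values in each phase (5505) were fitted with limma 3.58.1 (R 4.3.3), 1 mean per starvation and phase, with Benjamini-Hochberg adjustment over all genes and a threshold of 0.05. The fit was tested on simulated data. All 48 symbols matched R64 (RefSeq); no sequence was used here. Values at all times are given for the isoform pairs, for the highest and lowest late mean of each complex (subunits and assembly factors apart) and for genes called between starvations; COX20, COX17, AAC1 and AAC3 were added after their values were seen. The members and lists were chosen with earlier results of these data known. Alternatives covered background, scaling, filters, variance, slide and time blocks, a log2 change of at least 1, and each array left out. The number of arrays limits the precision. Slides were the batch tested: 2 of the 10 slides held 2 arrays, 1 of each starvation.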

Additional observations from a re-analysis of the deposited data

Results flagged for a closer look

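In 3 genes the late change differed between carbon and nitrogen starvation by the test of the difference itself (limma, adjusted p under 0.05). COX5B was higher in nitrogen starvation by 2.53 on the log2 scale, SDH2 differed by -1.79 and COX7 by -1.19. Over all genes 12.9% were higher and 3.34% lower in nitrogen starvation. Of the 3 calls only 1, COX5B, was made in every alternative, and 0 were made with every array left out in turn. Among 54 groups examined for 1 array far from the others (the times of a starvation, for the genes with values at all times given and for the complex medians), 0 were found.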

How the results depend on the processing

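No named gene's late call and no complex median changed sign under the alternatives run; single genes from early to late were not followed. Late in carbon starvation 31 genes were higher and, of the 32 called, 31 were called in every alternative and 25 also on leaving out each array; late in nitrogen starvation these were 20 and 18 of 25. Counts of lower genes are small and moved most. With normexp and loess they were 0 late in carbon, 2 late in nitrogen, 18 between starvations and 2 from early to late carbon, and with normexp and equal totals 0, 0, 9 and 12. Between starvations the count was 9 with no further scaling, 10 with array medians at 0, 9 in the series table, 1 without the filter on dim spots, 1 on the 8 strong arrays, 1 with slide as a random block, 0 with trended variance and 0 with 1 mean over 6 times. From early to late carbon it was 2 with no further scaling, 3 with array medians at 0, 2 in the series table, 0 without the filter and 0 with genes above background throughout. Late in carbon it was 0 with array medians at 0 and 2 with 1 mean over 6 times. Late in nitrogen it was 0 without the filter, 0 on the 8 arrays and 0 with time point as a block. Above the median of all genes, complex III stood at 1.49 in late carbon (2.17 in the main processing) and 0.67 in late nitrogen starvation (1.11) with normexp and loess, and complex II at 1.42 (1.78); complex III in late nitrogen was at 0.72 with normexp and equal totals and 1.20 with genes above background throughout. The causes were not tested. Leaving out each array gave 25 to 33 higher and 0 to 1 lower late in carbon, 18 to 26 and 0 to 1 late in nitrogen, 0 to 1 and 0 to 7 between starvations, 7 to 21 and 0 to 3 from early to late carbon, and 0 to 9 higher from early to late nitrogen starvation. Early to late carbon gave 7 higher without the 120 min and 8 without the 10 min carbon array. Slide, time and variance settings for single genes, and medians on the 8 arrays, were chosen after seeing the data. The labels number no replicates, but both courses share their times: time point as a block gave 33 higher genes late in carbon and 28 late in nitrogen starvation, and 1 higher and 3 lower between them. Weak red signal on 4 arrays limits the early values.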
